A study of Mus musculus with 8 samples.

Results

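The natriuretic peptides, their receptors and their processing enzymes were followed in 2 fetal mouse vessels, the ductus arteriosus and the aorta, as 8 genes out of 18193 on the array. The peptide genes were Nppa, Nppb and Nppc, the receptor genes Npr1, Npr2 and Npr3, and the convertase genes Corin and Furin. They were selected by annotation, as every probe set carrying exactly 1 of these symbols. This gave 10 of 34945 single-gene probe sets, 3 for Npr3 and 1 for each of the other 7 genes. The family was picked because Corin is among the genes with the largest difference in favour of the aorta, so the Corin difference is described here without a test.

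Both vessels came from untreated wild-type fetuses on day 19 of gestation, and the labels give the strain as CD88. Each array held RNA pooled from the vessels of up to 10 pups of a single pregnant female, with 4 arrays of ductus and 4 of aorta. The ductus arteriosus is the fetal shunt that joins the pulmonary artery to the aorta, and a corresponding aortic segment was set against it. Values are log2 levels from robust multi-array averaging (RMA), which compare arrays for a probe set but not different probe sets. First quartiles of the arrays lay between 2.74 and 2.86, the table used has no detection call, and the number of arrays limits the precision. In pooled tissue, fewer cells of a type and less RNA per cell cannot be told apart.

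Natriuretic peptides are hormones that relax vessels and promote the loss of salt and water. Atrial natriuretic peptide (ANP, from Nppa) and brain natriuretic peptide (BNP, from Nppb) come mainly from heart muscle, and C-type natriuretic peptide (CNP, from Nppc) from endothelium, cartilage and other tissues. ANP and BNP act on the receptor encoded by Npr1 and CNP on that of Npr2, both of which make cyclic GMP, while the Npr3 product binds each of these peptides and mainly removes them. Corin is a membrane serine protease, best known from heart muscle, that cuts the ANP precursor. Furin is a widely expressed convertase that cuts the precursors of CNP and BNP.

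The members that stood apart between the vessels were the clearance receptor Npr3, higher in the ductus, and Corin, lower there. For the 3 peptide genes, the receptor genes Npr1 and Npr2 and the convertase Furin, the difference did not pass the test. Of the 7 members other than Corin, 1 was called (limma, adjusted p under 0.05 over all genes), against 3.86% of all 18193 genes. Of the same 7, the tissues did not overlap for 1, Npr3, against 11.3% of all genes.

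**Figure D1:**
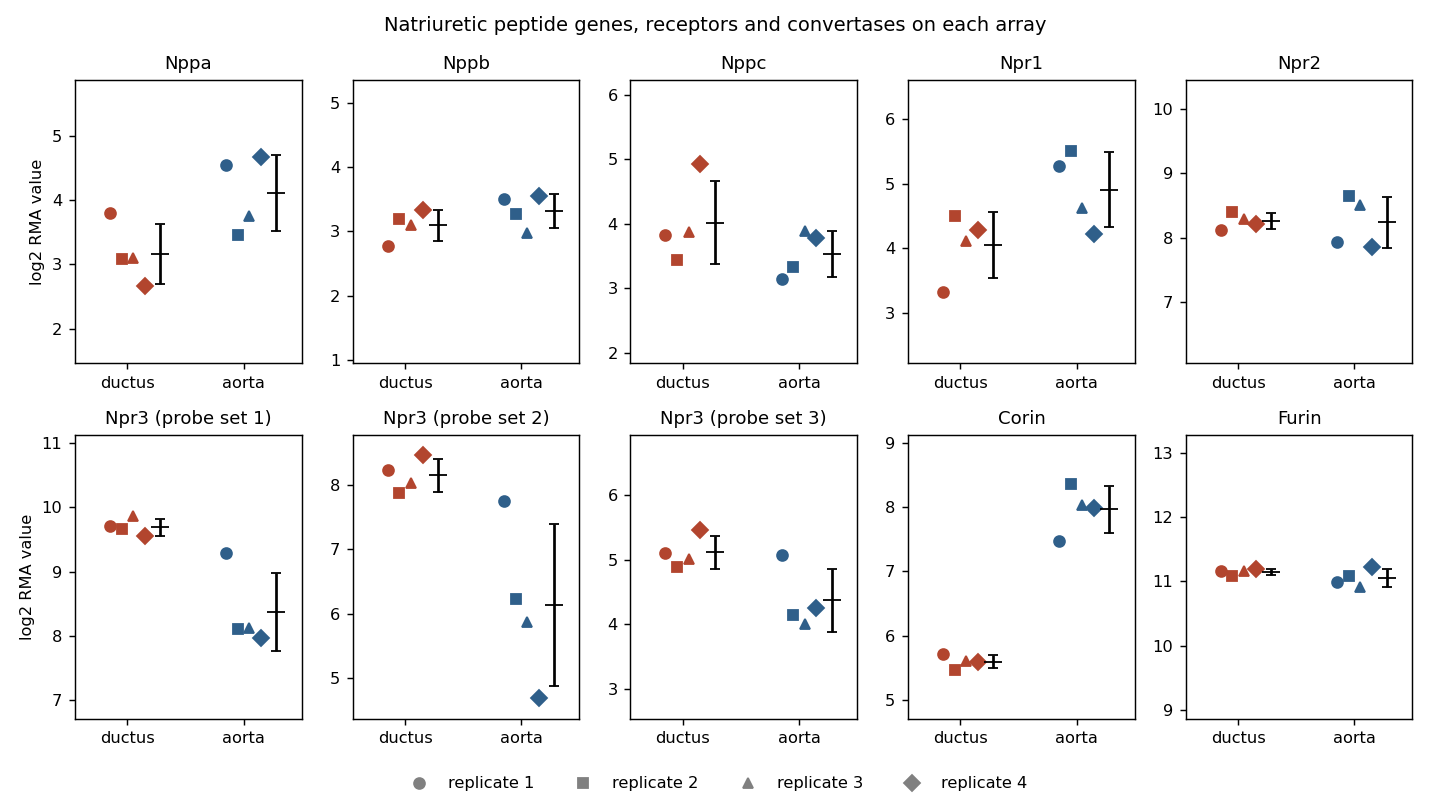
Log2 RMA values of the 10 probe sets on each array, with ductus on the left and aorta on the right of each panel, and the mean ± SD of 4 arrays beside the points. Every panel spans the same range of log2 units. Corin is low in all 4 ductus arrays, Npr3 is high in them, and aorta replicate 1 lies above the other aorta arrays in all 3 Npr3 panels.

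Corin was uniformly low in the ductus. Its values were 5.71, 5.47, 5.61 and 5.60 in ductus replicates 1 to 4, against 7.48, 8.36, 8.03 and 7.99 in aorta replicates 1 to 4. The tissues did not overlap, and the ductus arrays lay closer together (SD 0.10) than the aorta arrays (SD 0.364). The mean was 5.60 in the ductus and 7.96 in the aorta, a log2 difference of -2.36 (5.15-fold lower), and the ductus mean was above every array's first quartile. In order of the difference, Corin was number 8 of the 18193 genes on the aorta side. Without aorta replicate 1, its lowest aorta array, the difference was -2.53, and without aorta replicate 2, its highest, -2.23.

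The start regions of Corin and of Nppa, the gene of its substrate, are shown because both genes are known targets of the transcription factor GATA4 in rodent heart muscle. The part of Gata4 in the Corin and Nppa values was not tested. Each is the stretch of 250 bases upstream of the annotated start, from RefSeq on GRCm38.p6, 5′ to 3′ on the gene's strand. Capitals mark the letters GATA on either strand. The Corin stretch is chr5:72504541-72504790 on the minus strand and the Nppa stretch is chr4:148000472-148000721 on the plus strand.
Corin: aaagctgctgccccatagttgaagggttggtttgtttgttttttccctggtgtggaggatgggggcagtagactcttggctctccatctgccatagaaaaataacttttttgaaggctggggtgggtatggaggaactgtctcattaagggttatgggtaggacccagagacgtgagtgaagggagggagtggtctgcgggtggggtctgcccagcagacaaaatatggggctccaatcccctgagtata
Nppa: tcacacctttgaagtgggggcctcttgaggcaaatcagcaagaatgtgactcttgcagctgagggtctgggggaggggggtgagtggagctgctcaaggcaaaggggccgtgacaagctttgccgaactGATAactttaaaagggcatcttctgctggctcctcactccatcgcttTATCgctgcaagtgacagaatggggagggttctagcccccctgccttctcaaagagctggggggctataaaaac
The Nppa stretch holds GATA at -121 to -118, counted back from the start, and its reverse complement at -74 to -71. The Corin stretch holds no match, which says only that these letters are not in this window. All 8 genes had such a window, and 3 of their 9 windows held a match (1 window each for Nppa, Nppb and Furin), against 53.6% of 32807 mouse windows of the same length.

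Furin, the other convertase, did not pass the test. Its values ran between 11.09 and 11.19 in the ductus and between 10.91 and 11.23 in the aorta, and the ranges overlapped. The difference was 0.10 ± 0.103 (log2, SE; 95% confidence interval -0.13 to 0.33; adjusted p = 0.721).

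Nppa, the ANP gene, overlapped between the tissues. It was at 3.80, 3.08, 3.11 and 2.66 in ductus replicates 1 to 4, against 4.54, 3.46, 3.76 and 4.68 in aorta replicates 1 to 4. Ductus replicate 1 lay above aorta replicates 2 and 3. The difference of -0.94 ± 0.314 (log2, SE; 95% confidence interval -1.65 to -0.24) did not pass over all genes (adjusted p = 0.161, unadjusted 0.0140). These levels are low: 83 probe sets for olfactory, vomeronasal and taste receptors, a comparison chosen after the values were seen, had a median of 2.39 and a 95th percentile of 3.03. RMA values do not strictly compare different probe sets, so this is only a rough guide to a low range. On that guide, the Nppa difference may be compressed.

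Nppb, the BNP gene, stayed close to that low range in both vessels. Its values were between 2.77 and 3.33 in the ductus and between 2.97 and 3.54 in the aorta. The tissues overlapped, with a difference of -0.22 ± 0.166 (95% confidence interval -0.60 to 0.15; adjusted p = 0.579). Nppc, the CNP gene, was at 3.83, 3.44, 3.88 and 4.93 in ductus replicates 1 to 4, against 3.14, 3.33, 3.88 and 3.78 in aorta replicates 1 to 4. Only ductus replicate 4 lay above all aorta arrays. The Nppc difference was 0.48 ± 0.304 (95% confidence interval -0.20 to 1.17; adjusted p = 0.497), and 0.18 without ductus replicate 4.

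Among the receptors, Npr3 was called higher in the ductus. On its brightest probe set, the one used for the gene, it was at 9.70, 9.66, 9.86 and 9.55 in ductus replicates 1 to 4, against 9.28, 8.10, 8.12 and 7.97 in aorta replicates 1 to 4. Every ductus array lay above every aorta array, and aorta replicate 1 lay more than 1 log2 unit above the other 3. The means were 9.69 ± 0.130 for ductus and 8.37 ± 0.611 for aorta (SD, n = 4 each). The difference of 1.32 ± 0.263 (SE; 2.50-fold higher; 95% confidence interval 0.73 to 1.91) passed over all genes (limma, adjusted p = 0.0239). It ranked number 134 on the ductus side.

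The other Npr3 probe sets pointed the same way. The second was at 8.23, 7.87, 8.04 and 8.46 in ductus replicates 1 to 4, against 7.75, 6.23, 5.87 and 4.69 in aorta replicates 1 to 4, again without overlap. The third was at 5.10, 4.88, 5.01 and 5.47 in the ductus, against 5.08, 4.15, 4.00 and 4.25 in the aorta. There aorta replicate 1 lay inside the ductus range. In the fit over all 34945 single-gene probe sets, the differences were 1.32 ± 0.261 (adjusted p = 0.0260), 2.02 ± 0.511 (adjusted p = 0.0765) and 0.75 ± 0.233 (adjusted p = 0.150), so 1 of the 3 was called, against 1.39% of all probe sets called higher in the ductus and 2.86% called in either direction. Non-overlap with the ductus on top, seen for 2 of the 3, applied to 4.56% of all probe sets. The 3 probe sets share their arrays and their gene and are not separate evidence.

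The Npr3 call was close to the threshold. It no longer passed without any single one of 7 arrays (all 4 of ductus, and aorta replicates 2, 3 and 4), with differences of 1.19 to 1.37 and adjusted p up to 0.0783. Without aorta replicate 1 the difference was 1.62 (adjusted p = 0.000247).

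Npr1, the ANP and BNP receptor, did not pass the test. It was at 3.33, 4.50, 4.12 and 4.28 in ductus replicates 1 to 4, against 5.27, 5.51, 4.63 and 4.23 in aorta replicates 1 to 4. Aorta replicate 4 lay inside the ductus range. The difference was -0.85 ± 0.322 (95% confidence interval -1.58 to -0.13; adjusted p = 0.219, unadjusted 0.0253). Npr2, the CNP receptor, ran between 8.12 and 8.41 in the ductus and between 7.86 and 8.65 in the aorta. All 4 ductus arrays lay within the aorta range, and the difference of 0.02 ± 0.187 (95% confidence interval -0.40 to 0.44; adjusted p = 0.972) took a negative sign on leaving out some arrays.

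**Figure D2:**
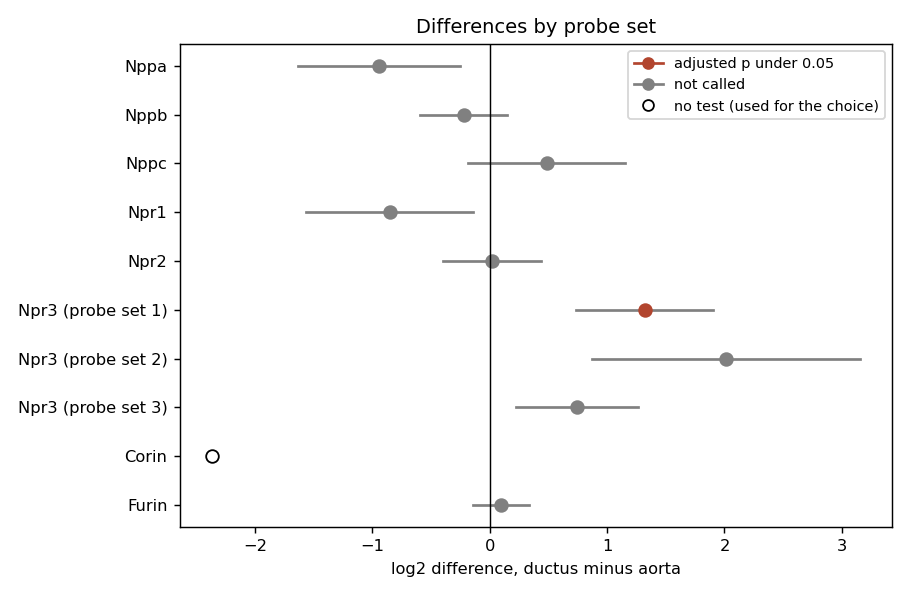
Log2 difference, ductus minus aorta, of each of the 10 probe sets in the fit over all single-gene probe sets, with lines for the 95% confidence interval. The 3 Npr3 probe sets lie to the right of 0 and the first of them is called. Corin, at -2.36, is drawn without an interval because its difference was used to choose the family.

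Markers of other cell types moved with the tissues, and 1 library moved with Npr3. Mesothelial markers averaged 6.49 to 7.10 on the ductus arrays and 7.70 to 9.09 on the aorta arrays. Of 10, limma called 7 lower in the ductus and 0 higher. Endothelial markers averaged 7.53 to 7.79 on the ductus arrays and 8.12 to 8.60 on the aorta arrays (3 of 8 called lower, 0 called higher). Smooth muscle markers averaged 10.01 to 10.47 on the ductus arrays and 9.31 to 9.95 on the aorta arrays. Of 7, limma called 2 higher in the ductus and 0 lower, and 6 had the higher mean there. The called genes were Myh11 (log2 difference 1.00, adjusted p = 0.00623) and Cnn1 (log2 difference 1.41, adjusted p = 0.0273). Acta2, the vascular actin, was not called (adjusted p = 0.464). It averaged 12.35 ± 0.048 in ductus pools and 12.14 ± 0.218 in aorta pools (SD, n = 4 each). Npr3 is itself a marker of mouse endocardium. The 4 other endocardial markers averaged 5.96 to 6.38 on the ductus arrays and 6.82 to 7.29 on the aorta arrays (1 called lower, 0 called higher). By sign alone, all 10 mesothelial, 8 endothelial and 4 endocardial markers had the lower mean in the ductus. On aorta replicate 1, where Npr3 was high, the mesothelial (9.09), endothelial (8.60) and endocardial means (7.29) were at their highest and the smooth muscle mean (9.31) at its lowest.

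Markers of neighbouring tissues were followed in the same way. Lung epithelium markers averaged 4.19 to 6.02 on the ductus arrays and 3.22 to 4.63 on the aorta arrays. Of 4, 1 was called higher in the ductus, Scgb1a1, the club cell secretory protein (log2 difference 3.05, adjusted p = 0.000992). Skeletal muscle markers averaged 3.75 to 6.12 on the ductus arrays and 3.33 to 3.90 on the aorta arrays. All 8 had the higher mean in the ductus, where replicate 3 (6.12) lay above the others (3.75 to 4.04), and limma called 0 of them (1 at an unadjusted p under 0.05). Cartilage markers averaged 4.66 to 4.92 on the ductus arrays and 4.69 to 5.14 on the aorta arrays. Of 7, 1 was called lower in the ductus, Acan, the gene of aggrecan (log2 difference -1.69, adjusted p = 0.00447). Acan averaged 9.48 in the ductus and 11.18 in the aorta. The rest of the first 4 of the list were Col2a1 (3.03 and 2.75), Matn1 (2.41 and 2.47) and Col9a1 (6.95 and 7.23). Col2a1 and Matn1 thus lay near or under the first quartiles in both vessels, and the Acan difference alone does not show cartilage. By sign alone, 2 of the 7 had the higher mean in the ductus, among them Col11a1 (log2 difference 1.31, adjusted p = 0.0653). Fibroblast markers averaged 10.37 to 10.54 on the ductus arrays and 10.45 to 10.70 on the aorta arrays, and limma called 0 of 5 (2 at an unadjusted p under 0.05). The 3 measured neural markers averaged 3.06 to 3.19 on the ductus arrays and 3.08 to 3.39 on the aorta arrays, with 0 called and 0 at an unadjusted p under 0.05. The part of all these cell types in the Npr3 and Corin differences was not tested.

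Heart muscle markers bear on Nppa and Corin, since both genes are known from cardiomyocytes. The 12 markers averaged 5.81 to 6.42 on the ductus arrays and 5.73 to 6.90 on the aorta arrays, with overlap. Of them, 1 was called lower in the ductus (Tnnt2, cardiac troponin T, by a log2 difference of -1.28, adjusted p = 0.0350) and 0 higher. By sign alone, 5 of the 12 had the higher mean in the ductus, among them Myh6, a cardiac myosin heavy chain, at 6.08 to 7.67 on the ductus arrays and 4.85 to 7.43 on the aorta arrays (log2 difference 0.36, adjusted p = 0.839). Nkx2-5, a cardiac transcription factor, averaged 2.51 ± 0.084 in ductus pools and 2.84 ± 0.214 in aorta pools, near the first quartiles (adjusted p = 0.223). The aorta arrays with the highest marker means, replicates 1 (6.90) and 4 (6.75), were also those with the highest Nppa, and ductus replicate 1 had the highest marker mean (6.42) and Nppa of its tissue. In the aorta, Corin was lowest on replicate 1 and highest on replicate 2, where the marker mean was at its lowest (5.73). The part of heart muscle in the Nppa and Corin values was not tested.

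**Figure D3:**
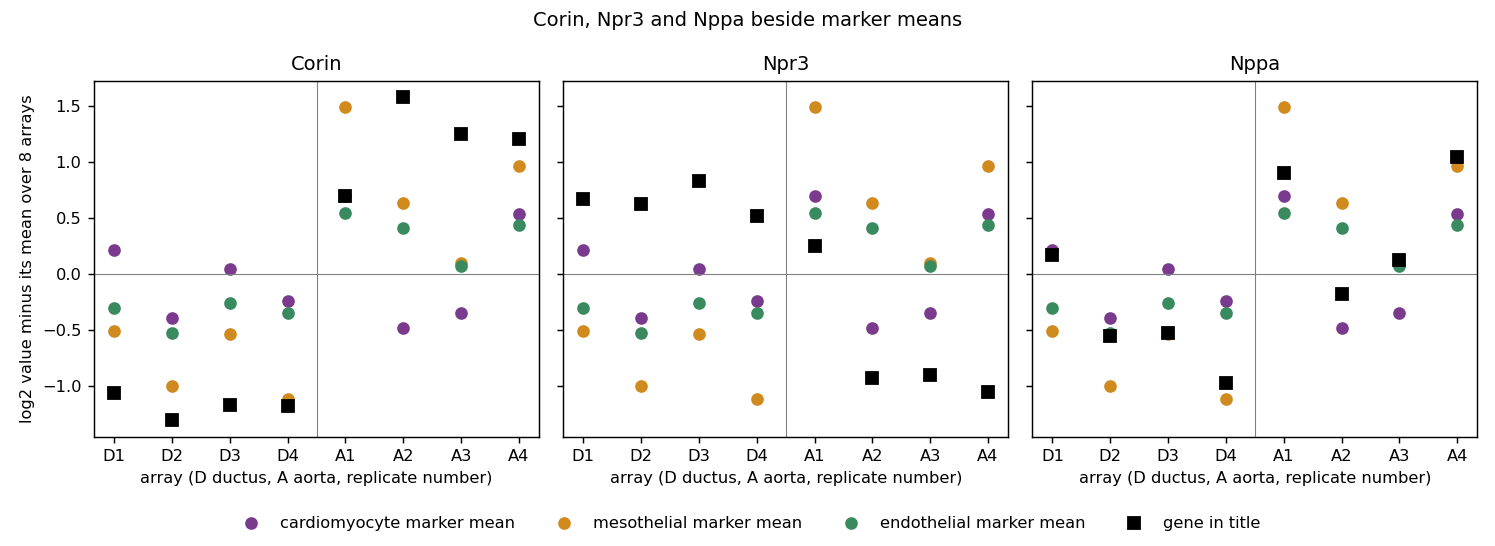
Values of Corin, Npr3 and Nppa (squares) and the means of 3 marker lists (circles) on each array, as log2 units from their own mean over 8 arrays. Corin has its lowest aorta value on A1, where all 3 marker means are at their highest, Npr3 has its highest aorta value there, and Nppa is high on A1 and A4 together with the cardiomyocyte mean.

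Genes around the pathway differed in both directions. Of 30 listed genes, 29 were measured (Ostn, a competing ligand of the clearance receptor, was not analysed here). In the ductus, 3 were called higher, against 1.80% of all genes, and 5 lower, against 2.06%. The list was chosen with earlier results of these data known, so these counts are a description and not a test. The median difference of the list was -0.07, against -0.03 over all genes.

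Peptide-degrading enzymes split between the vessels. Mme, neprilysin, which degrades natriuretic peptides, was at 4.38, 4.42, 4.61 and 4.48 in ductus replicates 1 to 4, against 3.79, 3.57, 4.11 and 3.76 in aorta replicates 1 to 4. The groups did not overlap, and the difference was 0.67 ± 0.130 (adjusted p = 0.0215). It no longer passed without any single one of 6 arrays (all except ductus replicate 1 and aorta replicate 3), with adjusted p up to 0.0625. Dpp4, a peptidase that trims BNP in humans, was lower in the ductus, at 9.60 to 9.88 against 10.73 to 11.85 in the aorta (log2 difference -1.28 ± 0.230, adjusted p = 0.0144; 3 of its 4 probe sets). Ide, the insulin-degrading enzyme, which also cuts ANP, differed by -0.20 ± 0.116 (adjusted p = 0.451).

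Of the convertases related to furin, Pcsk5 was higher in the ductus, at 9.06 to 9.53 against 8.64 to 8.80 in the aorta (log2 difference 0.56 ± 0.123, adjusted p = 0.0364). Its call held, among fits with 1 array left out, only without ductus replicate 4, and adjusted p reached 0.0934 in the others. Pcsk6, the convertase that activates corin, did not overlap between the vessels, at 4.93 to 5.37 in the ductus against 5.47 to 5.96 in the aorta. Its difference of -0.48 ± 0.155 did not pass (adjusted p = 0.142). Pcsk7 differed by 0.09 ± 0.142 (adjusted p = 0.821).

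Downstream of the receptors, the type II cyclic GMP-dependent kinase Prkg2 was lower in the ductus. It was at 5.96, 5.77, 5.56 and 6.38 in ductus replicates 1 to 4, against 7.68, 7.88, 7.48 and 7.51 in aorta replicates 1 to 4, without overlap. The difference was -1.72 ± 0.179 (3.30-fold lower, adjusted p = 0.000733), and it passed without any single array. The type I kinase Prkg1, the main form in smooth muscle, differed by 0.15 ± 0.141 (95% confidence interval -0.17 to 0.47; adjusted p = 0.684). Pde5a, a phosphodiesterase that breaks down cyclic GMP, differed by -0.19 ± 0.103 (adjusted p = 0.422). Kcnma1, the pore of the large-conductance potassium channel that cyclic GMP-dependent kinase opens in smooth muscle, was higher in the ductus, at 7.67 to 7.82 against 6.23 to 7.08 in the aorta (log2 difference 1.10 ± 0.193, adjusted p = 0.0124). Gucy1a1, part of the nitric oxide receptor that supplies cyclic GMP independently of the peptides, was lower, at 10.08 to 10.69 against 11.42 to 11.78 in the aorta (log2 difference -1.19 ± 0.145, adjusted p = 0.00177).

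Gata4, the gene of that transcription factor, was at 3.60, 3.80, 4.14 and 4.02 in ductus replicates 1 to 4, against 6.71, 5.97, 4.83 and 5.67 in aorta replicates 1 to 4. The groups did not overlap, with a difference of -1.90 ± 0.335 (3.74-fold lower, adjusted p = 0.0130). Of its 2 probe sets, 1 went in this direction. Lrp2, the endocytic receptor megalin, was 4.49-fold lower in the ductus, at 3.38 to 4.06 against 4.96 to 6.66 in the aorta (log2 difference -2.17 ± 0.314, adjusted p = 0.00464; 2 of its 3 probe sets). Ductus levels of both genes were low, which may compress these differences. Among the aorta arrays, Gata4 and Lrp2 were both highest on replicate 1 and lowest on replicate 3. The mean of the mesothelial markers had the same extremes there (9.09 and 7.70). Corin had its lowest aorta value on replicate 1. The part of mesothelium in the Gata4, Lrp2 and Corin differences was not tested.

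**Figure D4:**
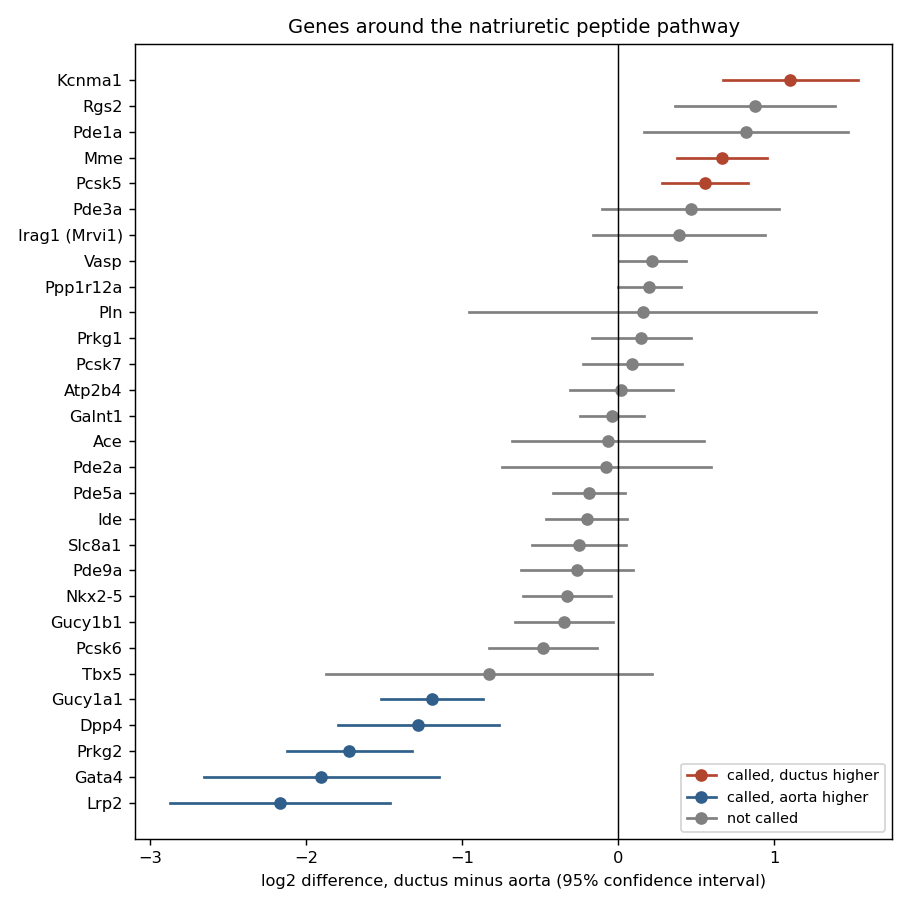
Log2 difference, ductus minus aorta, of the 29 measured pathway genes, with lines for the 95% confidence interval. Of the 8 called genes, Kcnma1, Mme and Pcsk5 lie to the right of 0, and Gucy1a1, Dpp4, Prkg2, Gata4 and Lrp2 to the left.

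Across the 8 arrays, the gene whose profile lay closest to that of Corin was Kcnab1, a potassium channel beta subunit, with a root mean square difference of 0.223 log2 units after centring each gene on its mean. Cacna2d3, a calcium channel subunit, followed at 0.307 and the collagen gene Col22a1 at 0.356. Kcnab1 was at 6.22 to 6.63 in the ductus and 8.31 to 9.19 in the aorta, with its lowest aorta value on replicate 1, as for Corin. The profiles closest to Npr3 were those of the cytokine gene Il15 (0.229), the transcription factor gene Pax6 (0.272) and Gca, the gene of the calcium-binding protein grancalcin (0.275). Each of these 3 also had its highest aorta value on replicate 1, where Il15 was at 5.35 against 4.68 to 4.89 on the other aorta arrays. This measure combines the tissue difference with the scatter of 8 arrays and was given no test. The genes were picked by it on these same arrays, so the shared high or low arrays follow largely from the choice.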

How the data were processed

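RNA from 4 pools of ductus and 4 of aorta was measured on Affymetrix mouse arrays. The authors deposited log2 values, made with RMA and Partek 6.6 per the submitters' processing notes, which give no order or settings. The values were used as given.

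Of 45101 probe sets, 64 controls were left out, 9160 were not in the annotation used, 932 carried several symbols and 34945 carried 1. Symbols of 34741 were updated by gene ID through the RefSeq table, and 204 stayed as annotated. A gene was represented by its probe set with the highest mean. No low-value filter was applied. Ductus minus aorta was fitted with limma 3.58.1 in R 4.3.3 (lmFit, eBayes, two-sided, no covariate) over all genes, and separately over all single-gene probe sets. Every adjusted p is limma's with Benjamini-Hochberg adjustment over the whole table, called under 0.05. Errors of differences are standard errors, those of levels standard deviations over 4 arrays. The fit was tested on simulated data.

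The members, the pathway list and the marker lists were chosen with earlier results of these data known. The rule for naming genes covers the 8 members and the called pathway genes with Prkg1, Pde5a, Mme, Gucy1a1 and Pcsk6. It also covers markers among the first 4 of their list (Acta2, Myh11, Cnn1, Myh6, Tnnt2, Col2a1, Acan, Matn1, Col9a1 and Scgb1a1). The 3 genes nearest in profile to Corin and to each called member complete it. Ide, Pcsk7, Pln, Tbx5, Nkx2-5, Col11a1 and the other genes with unusual arrays fall outside this rule. The labels call the replicates biological, so the spread tested is that between pools. They do not say whether a ductus pool and an aorta pool came from the same litter. Alternatives covered array scaling, low-value filters, probe set choice, the prior on the variance, weights on arrays, the replicate number as a block and leaving out each array.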

Additional observations from a re-analysis of the deposited data

Results flagged for a closer look

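In 8 of 74 groups of 4 arrays (the members and pathway genes in each tissue), an end value stood far from the other 3 by Dixon's test. Chance flags about 1 in 20 such groups if values are normal and independent. The rate over all genes on these arrays was not computed, so no excess particular to these genes can be read from the count. Npr3 was at 9.28 on aorta replicate 1, where the nearest other aorta array was at 8.12. Dpp4 was at 9.60 on ductus replicate 3, its lowest ductus array, and at 11.85 on aorta replicate 1, its highest aorta array. Ace, angiotensin-converting enzyme, was at 7.57 on ductus replicate 3 and at 7.13 on aorta replicate 2, both the highest of their tissue. Mrvi1, also called Irag1, a target of cyclic GMP-dependent kinase, was lowest on aorta replicate 1 at 6.63. Atp2b4, a plasma membrane calcium pump, was highest on ductus replicate 2 at 10.55, and Tbx5, a cardiac transcription factor, on ductus replicate 1 at 5.70.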

How the results depend on the processing

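Corin kept its direction and moved by less than the SD between arrays pooled over both tissues (0.267) under all 17 alternatives, with differences of -2.53 to -2.23. Without aorta replicate 1 or 2 it moved by more than the ductus SD alone (0.10). The low-value filters, the prior, the block and, with 1 probe set for Corin, the probe set choices could not change its difference. Corin was used to choose the family for its large difference. A kept direction was therefore largely fixed in advance and is only a description. Nppa, Nppb, Nppc, Npr1 and Furin kept their sign and stayed above the threshold in every alternative that could be run. Nppa, Nppb and Nppc fell under both low-value filters, and Npr1 under the stricter one, so these gave no value. The Npr2 difference of 0.02 was negative with array weights (-0.065) and ranged from -0.11 to 0.16 on leaving out arrays. Npr3 ranged from 1.19 to 1.62 on leaving out arrays, and was 2.02 with an adjusted p of 0.0580 when the probe set with the largest interquartile range was used; it stayed called under scaling, filters, priors, weights and the mean over probe sets. The count of called genes, 702, ranged from 443 to 705 on leaving out arrays, lowest without aorta replicate 2 and next lowest without ductus replicate 4 (454). The count of called probe sets, 1001, ranged from 618 to 988, lowest without ductus replicate 4, with 652 without aorta replicate 2. The pathway count of 8 ranged from 6 to 7. With the replicate number as a block, 403 genes, 545 probe sets and 5 pathway genes were called, and Npr3 kept its call (adjusted p = 0.0497). The replicate numbers are not shown to pair the samples: deviations of same-numbered arrays correlated at -0.23 to -0.07, and 0 of 8 arrays correlated best with their own number. The cause of these changes was not tested. Among the called pathway genes, Dpp4 (adjusted p = 0.0515) and Kcnma1 (0.0617) did not pass when the most variable probe set was used, Gata4 (0.0619), Mme (0.0536) and Pcsk5 (0.109) did not with the block, and Mme (0.0762) and Pcsk5 (0.0665) did not as the mean over probe sets. Signal near background limits Nppa, Nppb and Nppc. Levels were also low for Npr1 (mean 4.06), Gata4 (3.89) and Lrp2 (3.72) in the ductus and for Mme (3.81) in the aorta. Their differences may be compressed too.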

Other observations

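Pln and Tbx5, 2 cardiac genes of the pathway list, were higher on aorta replicates 1 and 4 than on 2 and 3, as was Nppa. Pln, phospholamban, the brake on the calcium pump of heart muscle, was at 5.84 to 6.25 in the ductus, against 7.19 and 6.56 on aorta replicates 1 and 4 and 4.72 and 4.94 on aorta replicates 2 and 3. Tbx5 was at no more than 5.70 in the ductus, against 7.56 and 6.18 on aorta replicates 1 and 4 and 5.13 and 5.33 on aorta replicates 2 and 3. Neither passed the test between the vessels, with log2 differences of 0.16 ± 0.495 for Pln (adjusted p = 0.919) and -0.83 ± 0.466 for Tbx5 (adjusted p = 0.438). Nkx2-5 and Gata4, from the same list, did not follow these pairs. Nkx2-5 was at 2.68, 2.76, 2.77 and 3.15 on aorta replicates 1 to 4, and Gata4 was higher on aorta replicate 2 (5.97) than on aorta replicate 4 (5.67). Pln and Tbx5 were singled out after their values were seen.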
